A study of Homo sapiens with 23 samples.

Results

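The genes described here make cholesterol, move it and sense it. They are the enzymes of the mevalonate and sterol arms of cholesterol synthesis, the regulators that hold or release the SREBP transcription factors, proteins that carry cholesterol, the oxysterol receptor LXR alpha, and fatty acid synthesis genes under the same control. The 32 genes are listed by name, and the rule for members uses no change between groups. A gene entered when 1 of its probes reached a detection p under 0.05 on 3 or more arrays, which 29 genes did, out of 12994 genes tested. FDFT1, STARD4 and NR1H2 had no named probe in the annotation used, so they were not analysed here and their detection was not tested. The 29 genes had 39 named probes, of which 37 were kept; the dropped probes, 1 of LSS and 1 of ABCG1, were each detected on 1 array. The set comprises 17 synthesis enzymes (7 of the mevalonate arm and 10 of the sterol arm), 5 genes of SREBP control, 4 of transport and export, 1 LXR gene and 2 of fatty acid synthesis.

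CCL-75 cells, human lung fibroblasts of 1 established line, were profiled on 23 Illumina bead arrays with 1 colour. Pre_Ab_IL13 cells (4 arrays) had TNF and IL-17 for 72 h, with a neutralising antibody to the receptor IL-13Ra2 in the last 1 h, then a wash and IL-13 for 20 h. Pre_Ab_only cells (4 arrays) had TNF, IL-17 and the antibody but no IL-13, Pre_IL13 cells (4 arrays) had TNF and IL-17 and then IL-13, and Pre_only cells (3 arrays) had TNF and IL-17 alone. IL13 cells (4 arrays) had IL-13 alone, and Control cells (4 arrays) had neither cytokines nor antibody. Cells of passage 6 and of passage 8 were each used in experiments A and B, and an array is named by both, as in P6-A. In Pre_only, passage 8 is represented by P8-B alone. The labels call A and B technical replicates while the series design calls them independent experiments, so p-values measure the spread between these arrays. Passage and beadchip cannot be told apart. By the array labels the groups follow the same order on both chips, so group and chip position cannot be fully told apart either.

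Cells build cholesterol from acetyl-CoA through mevalonate, farnesyl diphosphate and squalene. When sterols in the endoplasmic reticulum are low, SCAP escorts SREBP proteins to the Golgi, where they are cut to release factors that switch on the synthesis genes, and INSIG proteins hold SCAP back when sterols are plentiful. Oxysterols activate LXR, which switches on cholesterol export through ABCA1.

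RefSeq promoter windows (GRCh38.p14, 250 bases before to 50 after a start site) were available for 25 of the 29 genes, in 35 windows. The bases before the start site are shown for the 3 enzymes that fell most with TNF and IL-17, for INSIG1, which rose with IL-13 behind the antibody, and for SREBF2, the 1 gene with the full sterol element. Each is written 5′ to 3′ on the gene's strand. Capitals mark CCAAT boxes on either strand, bound by NF-Y, and in INSIG1 and SREBF2 also the sterol regulatory element or its core, bound by SREBP proteins.

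MSMO1, chr4:165327419-165327668, plus strand: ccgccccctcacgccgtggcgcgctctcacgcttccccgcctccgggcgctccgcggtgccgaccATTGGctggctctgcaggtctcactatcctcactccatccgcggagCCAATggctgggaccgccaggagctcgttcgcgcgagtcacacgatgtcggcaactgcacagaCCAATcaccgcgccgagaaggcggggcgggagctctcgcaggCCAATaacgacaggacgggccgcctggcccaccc

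HMGCS1, chr5:43313413-43313662, minus strand: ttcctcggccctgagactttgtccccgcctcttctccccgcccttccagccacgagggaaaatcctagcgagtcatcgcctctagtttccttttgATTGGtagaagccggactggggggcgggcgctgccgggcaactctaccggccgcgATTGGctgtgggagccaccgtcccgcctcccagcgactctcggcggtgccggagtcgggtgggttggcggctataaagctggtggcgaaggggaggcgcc

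FDPS, chr1:155308616-155308865, plus strand: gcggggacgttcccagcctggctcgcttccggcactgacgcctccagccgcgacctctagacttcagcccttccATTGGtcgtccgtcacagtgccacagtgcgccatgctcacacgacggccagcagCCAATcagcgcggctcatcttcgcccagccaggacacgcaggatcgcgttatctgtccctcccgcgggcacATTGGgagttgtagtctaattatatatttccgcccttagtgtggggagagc

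INSIG1, chr7:155297628-155297877, plus strand: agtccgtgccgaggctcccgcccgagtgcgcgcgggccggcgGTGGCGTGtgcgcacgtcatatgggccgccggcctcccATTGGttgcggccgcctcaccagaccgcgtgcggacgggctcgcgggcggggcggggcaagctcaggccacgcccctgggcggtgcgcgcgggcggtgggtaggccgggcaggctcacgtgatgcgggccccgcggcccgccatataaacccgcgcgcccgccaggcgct

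SREBF2, chr22:41832855-41833104, plus strand: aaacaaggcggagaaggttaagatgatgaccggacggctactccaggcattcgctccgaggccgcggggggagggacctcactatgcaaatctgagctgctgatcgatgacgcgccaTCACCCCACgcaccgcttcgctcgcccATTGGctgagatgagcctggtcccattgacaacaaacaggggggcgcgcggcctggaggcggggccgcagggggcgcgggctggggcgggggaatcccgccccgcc

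Searched on both strands of the full windows, CCAAT was present in 18 of the 25 genes and in 13 of the 15 enzymes with a window, against 39.7% of all 27305 genes in the RefSeq table. In the bases shown, MSMO1 held 4 boxes, FDPS 3 and HMGCS1 2. HMGCS1 had 2 windows, of which the window with more CCAAT boxes is shown, and the other held none. The full sterol regulatory element, TCACNCCAC, was found in 1 of the 25 genes, SREBF2, beginning 133 bases before the start site, against 1.39% of all genes. Its core CACNCCAC lies inside the full element and was searched after that result was seen. The core was found in 6 of the 25 genes (INSIG1, ABCA1, IDI1, SCD, SC5D and SREBF2), against 7.05% of all genes. The LXR direct repeat, AGGTCA written again after a spacer of 4 bases, was found in 0 of the 25 genes and in 0.026% of all genes. A match describes letters in a window and is neither a site nor a cause.

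The number of probes detected on an array ran from 17818 to 20167, and arrays of 1 group correlated at 0.981 or more. Beads of 1 probe agreed least on the IL13 arrays P6-A and P6-B, with a median standard error of 3.34% and 3.64% of the mean, against 2.83% to 3.13% on the other arrays. All 10 fibroblast markers were detected on all 23 arrays, with a mean level, in log2 normalised intensity, of 11.87 to 12.18 on Pre_only arrays and 11.51 to 11.82 on Control arrays. Of 5 epithelial markers KRT19 was tested, at 6.63 to 7.59 on Pre_only and 9.21 to 9.66 on Control arrays. Of 5 endothelial markers TEK and VWF were tested, with a mean of 6.12 to 6.30 and 6.16 to 6.33 on the same arrays. Of 6 leukocyte markers CD68 and LYZ were tested, with a mean of 8.38 to 8.50 and 7.80 to 8.13. The part of these markers in the results was not tested, and in bulk RNA fewer cells of a type and less RNA per cell cannot be told apart. IL13RA2, the antibody's target, was higher by 3.85 ± 0.15 (log2, SE) on Pre_only than on Control arrays, and the IL-13 response gene CCL26 by 5.02 ± 0.20 on IL13 than on Control arrays.

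The comparison of Pre_only with Control shows what 72 h of TNF and IL-17 did without IL-13. Cholesterol synthesis genes were lower as a group: 11 of 17 enzymes fell and 0 rose. Read from the kept probe of highest mean for each gene, all 17 changes were negative, from -0.07 ± 0.12 for HSD17B7 to -0.97 ± 0.16 for MSMO1. The median log2 change was -0.43, against -0.01 over all genes. Of the 29 sterol genes 15 fell and 4 rose (ABCA1, NR1H3, SCAP and NPC1), against 24.8% of all genes called, 12.8% lower and 12% higher. On every Pre_only array, 12 of 17 enzymes and 16 of the 29 genes were below every Control array, against 14% of all genes, and 4 of 29 were above, against 12.7%. Calls throughout are at an adjusted p under 0.05 in limma after Benjamini-Hochberg adjustment over all 12994 genes. Changes are log2 with the SE of a fit that adjusts for passage, and levels are log2 normalised intensities.

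**Figure D1:**
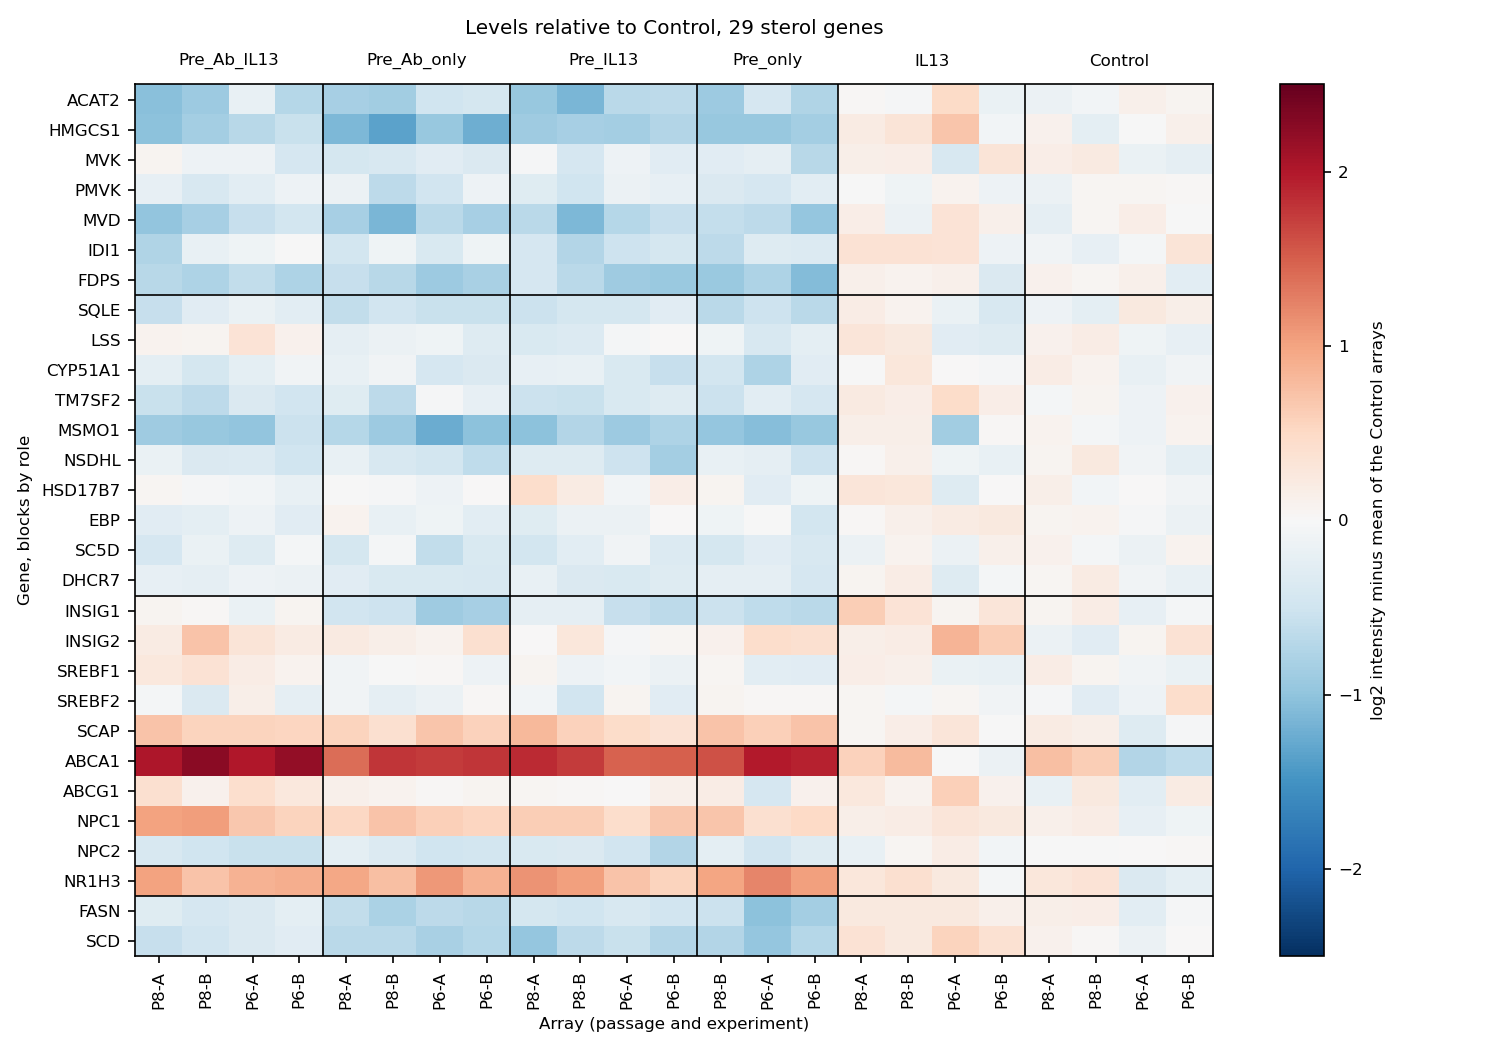
Level of each of the 29 genes (rows) on each of the 23 arrays (columns, by group and within it passage 8 before passage 6), as log2 intensity minus the mean of the 4 Control arrays. Most enzyme rows are blue (lower) on the 15 arrays that received TNF and IL-17, and ABCA1 and NR1H3 are red (higher) there.

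In the mevalonate arm 6 of 7 genes fell, with a median change of -0.74. HMGCS1, the cytosolic HMG-CoA synthase, stood at 7.27, 7.37 and 7.27 on the Pre_only arrays P6-A, P6-B and P8-B, against 8.22, 8.35, 8.33 and 7.98 on the Control arrays P6-A, P6-B, P8-A and P8-B, and the same array order holds below. Every Pre_only array was below every Control array, and HMGCS1 fell by 0.94 ± 0.13, or 1.92-fold (adjusted p = 2.07e-06). FDPS, which makes farnesyl diphosphate at the branch to sterols, prenyl groups and dolichol, had levels of 7.48, 7.17 and 7.32 in Pre_only cells, against 8.37, 7.98, 8.35 and 8.30 in Control cells. The groups did not overlap, and FDPS fell by 0.90 ± 0.13 (adjusted p = 1.45e-06). MVD, the decarboxylase that makes isopentenyl diphosphate, stood at 5.87, 5.56 and 5.93 on Pre_only arrays, against 6.70, 6.53, 6.31 and 6.58 on Control arrays. With no overlap, it fell by 0.78 ± 0.14 (adjusted p = 7.28e-05). ACAT2, the cytosolic thiolase at the entry of the pathway, stood at 8.40, 8.06 and 7.91 on Pre_only arrays, against 8.95, 8.88, 8.67 and 8.75 on Control arrays, all of them higher. ACAT2 fell by 0.74 ± 0.13 (adjusted p = 6.2e-05). IDI1, the isopentenyl diphosphate isomerase, fell by 0.46 ± 0.16, and PMVK, phosphomevalonate kinase, by 0.37 ± 0.12. MVK, mevalonate kinase, was near background (detected on 22 of 23 arrays), and its change of -0.37 ± 0.15 was not called (adjusted p = 0.07).

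In the sterol arm 5 of 10 genes fell, with a median change of -0.32. MSMO1, the methylsterol monooxygenase, had 8.31, 8.41 and 8.40 on Pre_only arrays, against 9.23, 9.45, 9.46 and 9.32 on Control arrays. The groups lay far apart, and MSMO1 fell by 0.97 ± 0.16, or 1.95-fold (adjusted p = 2.5e-05). Its probes disagreed: another probe changed by -0.75 ± 0.14, while one more, also detected on all 23 arrays, changed by 0.03 ± 0.15. SQLE, squalene epoxidase, stood at 8.73, 8.57 and 8.57 on Pre_only arrays, against 9.48, 9.38, 9.11 and 9.00 on Control arrays. All Control arrays were higher, SQLE fell by 0.63 ± 0.13 (adjusted p = 3.4e-04), and its other probe changed by -0.62 ± 0.14. The lanosterol demethylase CYP51A1 fell by 0.48 ± 0.13, the sterol reductase TM7SF2 by 0.43 ± 0.12 and the sterol desaturase SC5D by 0.37 ± 0.12. LSS, which makes lanosterol (-0.24 ± 0.14), and NSDHL (-0.27 ± 0.11), HSD17B7 (-0.07 ± 0.12), EBP (-0.19 ± 0.12) and DHCR7 (-0.27 ± 0.11), which act between lanosterol and cholesterol, were not called. A second LSS probe, detected on 12 arrays, changed by 0.08 ± 0.17.

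The genes of SREBP control did not move together. INSIG1, the anchor that retains SCAP and is itself an SREBP target, stood at 7.97, 7.93 and 8.06 on Pre_only arrays, against 8.39, 8.55, 8.66 and 8.79 on Control arrays. It fell by 0.57 ± 0.10 (adjusted p = 9.22e-05) without overlap. A second INSIG1 probe, detected on 3 arrays, changed by -0.05 ± 0.12. SCAP, the escort of SREBP proteins, was at 10.28, 10.38 and 10.40 on Pre_only arrays, against 9.35, 9.65, 9.88 and 9.83 on Control arrays. All Pre_only values were higher, and SCAP rose by 0.69 ± 0.11, or 1.62-fold (adjusted p = 1.31e-05). INSIG2, the second anchor, changed by 0.29 ± 0.15 (adjusted p = 0.183). SREBF1 and SREBF2, the genes of the SREBP factors, changed by -0.13 ± 0.11 and 0.02 ± 0.14 (adjusted p = 0.438 and 0.935). None of these 3 was called, and SREBF2 was near background, detected on 22 arrays.

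The genes of sterol export and sensing, ABCA1 and NR1H3, had the largest rises. ABCA1, which passes cholesterol to apolipoprotein A-I, was at 10.77, 10.72 and 10.37 on Pre_only arrays, against 8.06 and 8.16 on the passage 6 and 9.54 and 9.40 on the passage 8 Control arrays. It rose by 1.89 ± 0.22, or 3.71-fold (adjusted p = 4.49e-08), and the Control arrays differed widely by passage. NR1H3, which encodes LXR alpha, was at 7.98, 7.79 and 7.74 on Pre_only arrays, against 6.39, 6.51, 7.04 and 7.10 on Control arrays. All Pre_only arrays were higher, and NR1H3 rose by 1.11 ± 0.15, or 2.16-fold (adjusted p = 4.8e-07). NPC1 and NPC2, which together bring cholesterol out of lysosomes, moved apart: NPC1 rose by 0.55 ± 0.12 (adjusted p = 5.36e-04) and NPC2 fell by 0.34 ± 0.09 (adjusted p = 0.00606). ABCG1, which exports cholesterol to high density lipoprotein, changed by -0.04 ± 0.15 and was not called. Its signal was low, and a second probe, detected on 11 arrays, changed by 0.26 ± 0.12.

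Both fatty acid genes fell. SCD, the desaturase that makes monounsaturated fatty acids, stood at 9.01, 9.27 and 9.26 on Pre_only arrays, against 9.84, 9.99, 10.09 and 10.01 on Control arrays, and fell by 0.81 ± 0.11 (adjusted p = 4.82e-07). FASN, fatty acid synthase, stood at 10.25, 10.42 and 10.74 on Pre_only arrays, against 11.00, 11.24, 11.42 and 11.43 on Control arrays, and fell by 0.79 ± 0.10 (adjusted p = 2.82e-07). For either gene no Pre_only array reached the lowest Control array.

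Of the 19 calls, those of PMVK, IDI1, CYP51A1 and SC5D were lost with 1 array left out. IDI1 was not called without Pre_only P6-A, P6-B or P8-B or Control P6-B (adjusted p = 0.0516 to 0.134), SC5D without Pre_only P6-B or P8-B or Control P6-B or P8-A (0.0645 to 0.1), PMVK without Pre_only P6-A or Control P8-B (0.0593 to 0.106), and CYP51A1 without Pre_only P6-A (0.0649). With arrays scaled to 1 median in place of quantile normalisation, all 17 enzyme changes stayed negative (median -0.50, against -0.06 over all genes), 6 enzymes were called, NPC1 was no longer called, and calls over all genes were 742 up and 1203 down in place of 1559 and 1664.

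Of 33 related genes outside the set, 6 rose and 7 fell, against 12% higher and 12.8% lower of all genes. These shares of all genes also stand beside the counts by group below. CH25H, which makes an oxysterol, was not detected on any Control array and was at least 4.09-fold higher on Pre_only arrays (measured mean level 6.67 against 4.47; adjusted p = 2.91e-15). MYLIP, an LXR-controlled ligase that marks lipoprotein receptors for breakdown, rose by 1.00 ± 0.16, COQ2 of ubiquinone synthesis by 0.88 ± 0.12 and the oxysterol-forming hydroxylase CYP27A1 by 0.86 ± 0.12. The cytosolic acetyl-CoA synthetase ACSS2 fell by 0.98 ± 0.10, the phosphatidate phosphatase LPIN1 by 0.95 ± 0.12, the endocytic receptor LRP1 by 0.78 ± 0.19 and DHDDS of dolichol synthesis by 0.57 ± 0.10. By group, 5 fell and 1 rose of 9 genes of fatty acid synthesis and SREBP-1 targets. In sterol esters and oxysterols 3 of 5 rose and 0 fell, and in the isoprenoid branch 1 rose and 1 fell of 7.

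Pre_IL13 set against IL13 repeats the comparison in cells that all received IL-13, on arrays that the first comparison did not use, in the same fit. Here 12 of 17 enzymes fell and 0 rose, with 16 negative changes and a median of -0.40 against 0.00 over all genes. Of the 29 genes 16 fell and 4 rose, against 27.7% of all genes called, 13.8% lower and 14% higher. Without overlap, 14 were lower and 4 higher, against 10.9% and 11% of all genes. ABCA1 rose by 1.34 ± 0.20, NR1H3 by 0.64 ± 0.13, SCAP by 0.42 ± 0.10 and NPC1 by 0.37 ± 0.11. In all, 17 genes had the same call in both comparisons, 13 lower and 4 higher, which is 89.5% of the 19 called against Control and 85% of the 20 called against IL13, where over all genes the shares were 71.8% and 64.2%.

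**Figure D2:**
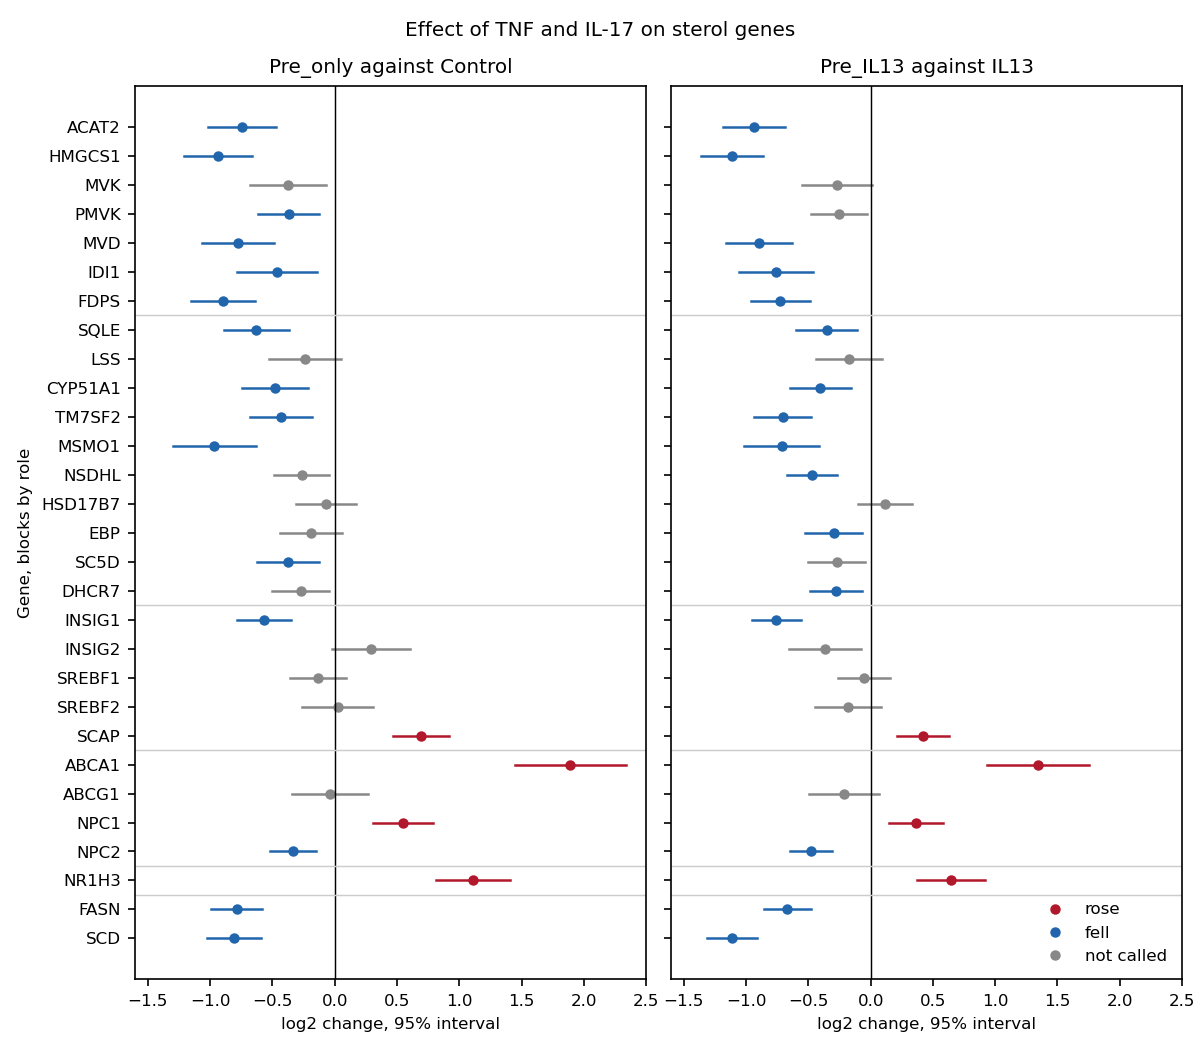
Log2 change of each of the 29 genes in Pre_only against Control (left) and in Pre_IL13 against IL13 (right), with 95% intervals from the fit over 23 arrays. Blue genes fell, red genes rose and grey genes were not called, and all enzymes lie left of 0 in both panels except HSD17B7 on the right.

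HMGCS1 was at 7.38, 7.49, 7.34 and 7.38 on Pre_IL13 arrays, against 8.91, 8.16, 8.42 and 8.55 on IL13 arrays, with no overlap. It fell by 1.11 ± 0.12, or 2.16-fold (adjusted p = 2.03e-08). SCD was at 9.43, 9.24, 9.03 and 9.33 on Pre_IL13 arrays, against 10.53, 10.36, 10.34 and 10.23 on IL13 arrays, again apart, and fell by 1.11 ± 0.10 (adjusted p = 1.74e-10). ACAT2 fell by 0.94 ± 0.12, MVD by 0.89 ± 0.13, IDI1 by 0.76 ± 0.14 and FDPS by 0.73 ± 0.12. INSIG1 was at 8.01, 7.94, 8.37 and 8.38 on Pre_IL13 arrays, against 8.66, 8.91, 9.22 and 8.95 on IL13 arrays, all higher, and fell by 0.76 ± 0.10 (adjusted p = 2.59e-07).

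MSMO1 overlapped through 1 array: it was at 8.46, 8.60, 8.34 and 8.64 on Pre_IL13 arrays, against 8.50, 9.39, 9.50 and 9.51 on IL13 arrays, where P6-A was low. It fell by 0.72 ± 0.15 (adjusted p = 4e-04), and its other probes changed by -1.26 ± 0.13 and -0.05 ± 0.14. TM7SF2 fell by 0.70 ± 0.11, FASN by 0.67 ± 0.09, NPC2 by 0.48 ± 0.08, NSDHL by 0.47 ± 0.10 and CYP51A1 by 0.40 ± 0.12. SQLE fell by 0.35 ± 0.12, with -0.08 in passage 6 and -0.62 in passage 8, and its other probe changed by -0.66 ± 0.13. EBP fell by 0.30 ± 0.11 and DHCR7 by 0.28 ± 0.10. The enzymes PMVK (-0.25 ± 0.11), SC5D (-0.27 ± 0.11), MVK (-0.27 ± 0.14), LSS (-0.18 ± 0.13) and HSD17B7 (0.11 ± 0.11) were not called. INSIG2 (-0.37 ± 0.14, adjusted p = 0.0536; -0.02 in passage 8 and -0.72 in passage 6), SREBF1 (-0.05 ± 0.10), SREBF2 (-0.18 ± 0.13) and ABCG1 (-0.21 ± 0.14) were not called either. INSIG2 was called, as lower, with no background correction, in the authors' normalised table, with genes detected on all arrays, and in passage 6 only.

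Leaving out 1 array ended 4 of these calls. SQLE was not called without Pre_IL13 P6-A or P8-A or IL13 P8-A or P8-B (adjusted p = 0.0619 to 0.134), NPC1 without Pre_IL13 P6-B (0.0508), and DHCR7 without Pre_IL13 P6-A, P6-B, P8-A or P8-B or IL13 P6-B, P8-A or P8-B (0.0517 to 0.144). EBP was not called without any 1 of 13 arrays (0.0504 to 0.155), namely Pre_Ab_IL13 P6-A, P6-B or P8-A, Pre_Ab_only P6-A, Pre_IL13 P6-A, P8-A or P8-B, IL13 P6-A, P6-B or P8-B or Control P6-A, P8-A or P8-B. Under median scaling the all-gene median moved to 0.15, the enzyme median was -0.16 with 13 of 17 negative, and 5 enzymes fell. Of the 29 genes 4 rose and 8 fell in that setting, and calls over all genes were 2400 up and 557 down in place of 1815 and 1789.

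Averaged over the 17 enzymes, the 15 arrays with TNF and IL-17 lay apart from the other 8. Relative to the Control mean, the average ran from -0.46 to -0.29 on Pre_Ab_IL13 arrays, from -0.50 to -0.43 on Pre_Ab_only arrays, from -0.50 to -0.42 on Pre_IL13 arrays and from -0.55 to -0.46 on Pre_only arrays. It ran from -0.04 to 0.14 on IL13 arrays and from -0.03 to 0.03 on Control arrays. No array with TNF and IL-17 reached the lowest array without them. The mean over all genes stayed between -0.02 and 0.02 on all 23 arrays. Quantile normalisation gives all arrays a common distribution of values, so this mean was largely fixed by the processing. It is no check on the enzyme values.

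**Figure D3:**
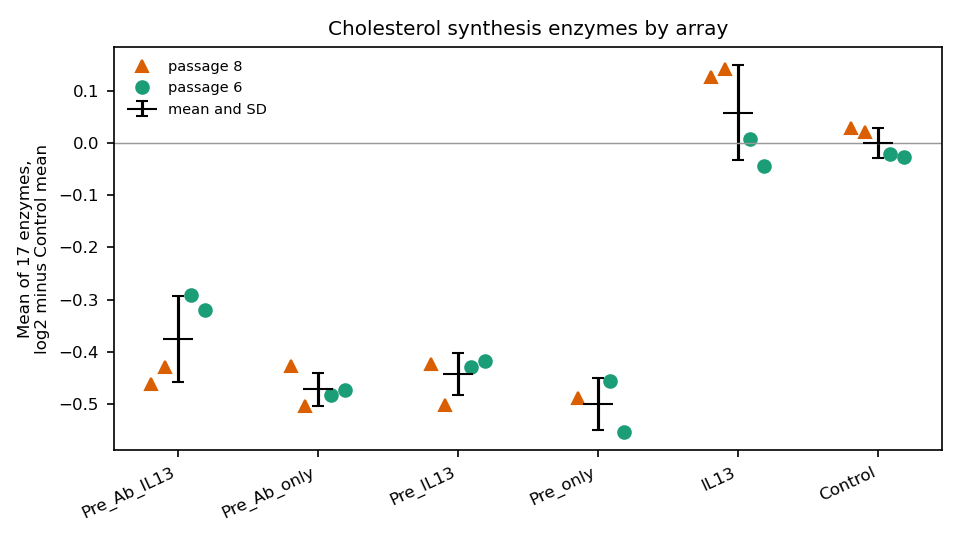
Mean of the 17 synthesis enzymes on each array, in log2 minus the mean of the Control arrays, with group mean and SD as bars, triangles for passage 8 and circles for passage 6. The 4 groups with TNF and IL-17 lie between -0.55 and -0.29, and the IL13 and Control arrays between -0.04 and 0.14.

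IL-13 without TNF and IL-17 (IL13 against Control) left 28 of the 29 genes uncalled. SCD rose by 0.38 ± 0.10 (adjusted p = 0.0312), 1 of 29, against 1.87% of all genes called and 1.15% higher. Its levels were 10.53, 10.36, 10.34 and 10.23 on IL13 arrays, against 9.84, 9.99, 10.09 and 10.01 on Control arrays, with no overlap. The change was 0.53 in passage 6 and 0.24 in passage 8, and the call was lost on leaving out any 1 of 6 arrays (IL13 P6-A, P6-B or P8-A or Control P6-A, P6-B or P8-B; adjusted p = 0.0539 to 0.146). INSIG1 (0.33 ± 0.10, adjusted p = 0.0689), INSIG2 (0.44 ± 0.14, adjusted p = 0.122), HMGCS1 (0.29 ± 0.12) and FASN (0.21 ± 0.09) were not called, and the median of the 17 enzymes was 0.06. With IL13 P6-A left out INSIG1 was called in place of SCD, and with IL13 P6-B left out HMGCS1 was. Some genes differed in sign between passages 6 and 8, among them SQLE (-0.47 and 0.33), MSMO1 (-0.39 and 0.11), LSS (-0.15 and 0.13) and HSD17B7 (-0.11 and 0.25). MSMO1 was at 8.50 on IL13 P6-A and 9.39 on IL13 P6-B. Over both passages it changed by -0.14 ± 0.15, and its other probes by 0.26 ± 0.13 and -0.12 ± 0.14. SQLE changed by -0.07 ± 0.12, and its other probe by 0.09 ± 0.13.

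In cells that had TNF and IL-17, IL-13 called none of the 29 genes (Pre_IL13 against Pre_only; limma, 0.0308% of all genes called). At an unadjusted p under 0.05 there were 3, against 6.41% of all genes: FASN (0.33 ± 0.10, adjusted p = 0.402), HSD17B7 (0.25 ± 0.12) and NSDHL (-0.24 ± 0.11). FASN was higher on every Pre_IL13 than on every Pre_only array, 1 of 29 genes, against 342 of all 12994. INSIG1 changed by 0.14 ± 0.10, with a 95% interval from -0.07 to 0.36, and SCD by 0.08 ± 0.11, from -0.14 to 0.30.

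When the antibody preceded IL-13 (Pre_Ab_IL13 against Pre_Ab_only), INSIG1 and FASN rose, 2 of 29, against 2.24% of all genes called and 1.15% higher. INSIG1 was at 8.43, 8.66, 8.67 and 8.62 on Pre_Ab_IL13 arrays, against 7.71, 7.76, 8.12 and 8.09 on Pre_Ab_only arrays. Every array with IL-13 was higher, and INSIG1 rose by 0.68 ± 0.10, or 1.6-fold (adjusted p = 3.01e-05), with changes of 0.81 in passage 6 and 0.54 in passage 8. FASN was at 10.92, 11.03, 10.97 and 10.86 on Pre_Ab_IL13 arrays, against 10.61, 10.58, 10.66 and 10.48 on Pre_Ab_only arrays, again with no overlap. It rose by 0.36 ± 0.09 (adjusted p = 0.0243), close to its uncalled change of 0.33 ± 0.10 with IL-13 but no antibody. Without overlap 7 of 29 genes were higher, against 3.51% of all genes: INSIG1, FASN, DHCR7, LSS, SCD, SREBF1 and ABCA1. Of these, DHCR7 (0.19 ± 0.10, adjusted p = 0.554), LSS (0.36 ± 0.13, 0.205), SCD (0.29 ± 0.10, 0.16), SREBF1 (0.27 ± 0.10, 0.228) and ABCA1 (0.44 ± 0.20, 0.401) were not called. HMGCS1 (0.38 ± 0.12, adjusted p = 0.126) overlapped and was not called. Second probes changed by 0.11 ± 0.11 for INSIG1 (detected on 3 arrays), 0.02 ± 0.11 for DHCR7 (23 arrays), 0.09 ± 0.16 for LSS (12 arrays) and 0.09 ± 0.15 for SREBF1 (22 arrays). FASN lost its call without Pre_Ab_IL13 P6-A, P6-B or P8-A or Pre_Ab_only P6-B, P8-A or P8-B (adjusted p = 0.0537 to 0.123), and INSIG1 kept its call in all 23 such fits. Under median scaling neither was called.

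Set against IL-13 without the antibody (Pre_Ab_IL13 against Pre_IL13), INSIG1 rose, 1 of 29, against 0.924% of all genes called and 0.677% higher. Its levels on Pre_Ab_IL13 arrays, given above, all exceeded the 8.01, 7.94, 8.37 and 8.38 on Pre_IL13 arrays. INSIG1 rose by 0.42 ± 0.10 (adjusted p = 0.0189), with changes of 0.57 in passage 6 and 0.27 in passage 8. It was not called without Pre_Ab_IL13 P6-B or Pre_IL13 P6-A or P6-B (adjusted p = 0.0867 to 0.119), nor under median scaling, for the mean over probes, with no passage term, with A and B averaged, or in either passage alone. Without overlap 4 of 29 genes were higher, against 2.69% of all genes: INSIG1, and, not called, LSS (0.34 ± 0.13), SREBF1 (0.29 ± 0.10) and ABCA1 (0.47 ± 0.20). Second probes changed by 0.01 ± 0.11 for INSIG1 (detected on 3 arrays), 0.07 ± 0.16 for LSS (12 arrays) and 0.29 ± 0.15 for SREBF1 (22 arrays).

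The antibody without IL-13 (Pre_Ab_only against Pre_only) called 0 of 29 genes and 0% of all genes in limma. At an unadjusted p under 0.05 there were 0 of the 29, against 5.07% of all genes. INSIG1 changed by -0.11 ± 0.10, FASN by 0.10 ± 0.10, SCD by 0.10 ± 0.11 and ABCA1 by -0.21 ± 0.22.

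**Figure D4:**
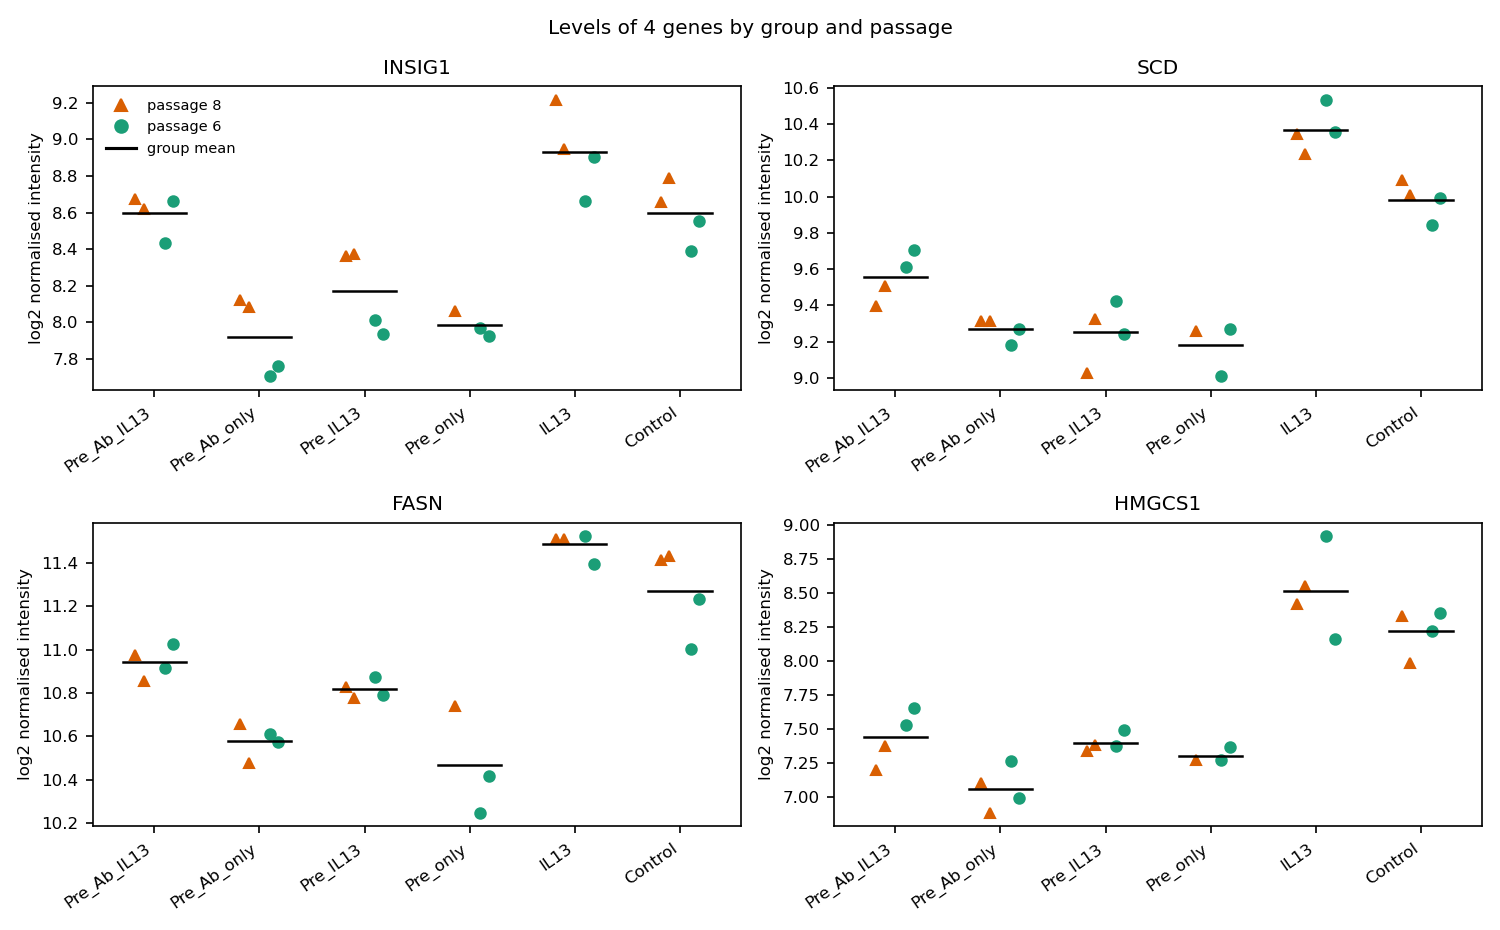
Levels of INSIG1, SCD, FASN and HMGCS1 in log2 normalised intensity on each array of the 6 groups, with triangles for passage 8, circles for passage 6 and a line at each group mean. INSIG1 averages 8.60 in Pre_Ab_IL13, 7.92 in Pre_Ab_only, 8.17 in Pre_IL13, 7.99 in Pre_only, 8.93 in IL13 and 8.60 in Control.

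Whether the IL-13 response itself differed was tested as a difference of differences, and none of the 29 genes was called. Between cells with and without TNF and IL-17, where 0.3% of all genes were called, 3 of 29 had an unadjusted p under 0.05, against 7.97%: INSIG2 (-0.66 ± 0.21, adjusted p = 0.295), NR1H3 (-0.46 ± 0.20) and SCD (-0.30 ± 0.14). Between cells with and without the antibody, all with TNF and IL-17, 0.231% of all genes were called and 3 of 29 had an unadjusted p under 0.05, against 6.63%: INSIG1 (0.53 ± 0.14, adjusted p = 0.167), ABCA1 (0.68 ± 0.30) and NSDHL (0.32 ± 0.14). The 95% interval for INSIG1 ran from 0.24 to 0.82, with 0.79 in passage 6 and 0.23 in passage 8. These differences share the Pre_IL13 and Pre_only arrays. FASN, called for IL-13 with the antibody and not without it, had no unadjusted p under 0.05 in either difference.

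Passage 8 differed from passage 6 in 8 of the 29 genes, 5 higher and 3 lower, against 29.4% of all genes called, 16.6% higher and 12.8% lower. NSDHL (0.25 ± 0.06), HSD17B7 (0.20 ± 0.06), INSIG1 (0.26 ± 0.06), SREBF1 (0.18 ± 0.06) and ABCA1 (0.36 ± 0.12) had a higher fitted level in passage 8, and ACAT2 (-0.33 ± 0.07), MVD (-0.20 ± 0.08) and TM7SF2 (-0.17 ± 0.07) a lower one. For ABCA1 this value averages opposite directions: passage 8 minus passage 6 was 0.03 in Pre_Ab_IL13, -0.18 in Pre_Ab_only, 0.32 in Pre_IL13, -0.37 in Pre_only, 0.76 in IL13 and 1.36 in Control. Of the others, SREBF1 in Pre_Ab_only (-0.01), MVD in Pre_only (0.21) and TM7SF2 in Control (0.01) went against their fitted sign. MVD lost its call on leaving out any 1 of 15 arrays, TM7SF2 of 19, ABCA1 without Control P6-A or P8-A, and SREBF1 without Pre_only P8-B or Control P8-A. Under median scaling 9 of the 29 genes were higher and 0 lower, ACAT2, MVD and TM7SF2 were not called, and calls over all genes were 2649 up and 564 down in place of 2152 and 1668.

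The effect of TNF and IL-17 on ABCA1 differed between the passages. ABCA1 changed by 0.90 in passage 8 and 2.64 in passage 6, a difference of -1.73 ± 0.21 (passage 8 minus passage 6, adjusted p = 4.9e-06), and it was the 1 gene of 29 called, against 1.44% of all genes. The Pre_only arrays stood at 10.37 in passage 8 and 10.77 and 10.72 in passage 6, and the Control arrays at 9.54 and 9.40 in passage 8 and 8.06 and 8.16 in passage 6. ABCA1 was thus lower in passage 8 than in passage 6 in Pre_only cells, and higher in Control cells. IL13 arrays stood at 9.37 and 9.57 in passage 8 and 8.78 and 8.63 in passage 6. For NR1H3 the passage difference was -0.76 ± 0.23 (adjusted p = 0.12), from changes of 0.67 in passage 8 and 1.43 in passage 6. No enzyme was called, with MSMO1 at -0.01 ± 0.30 and HMGCS1 at 0.08 ± 0.28. Passage 8 has 1 Pre_only array, so the spread of that group was not measured there.

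**Figure D5:**
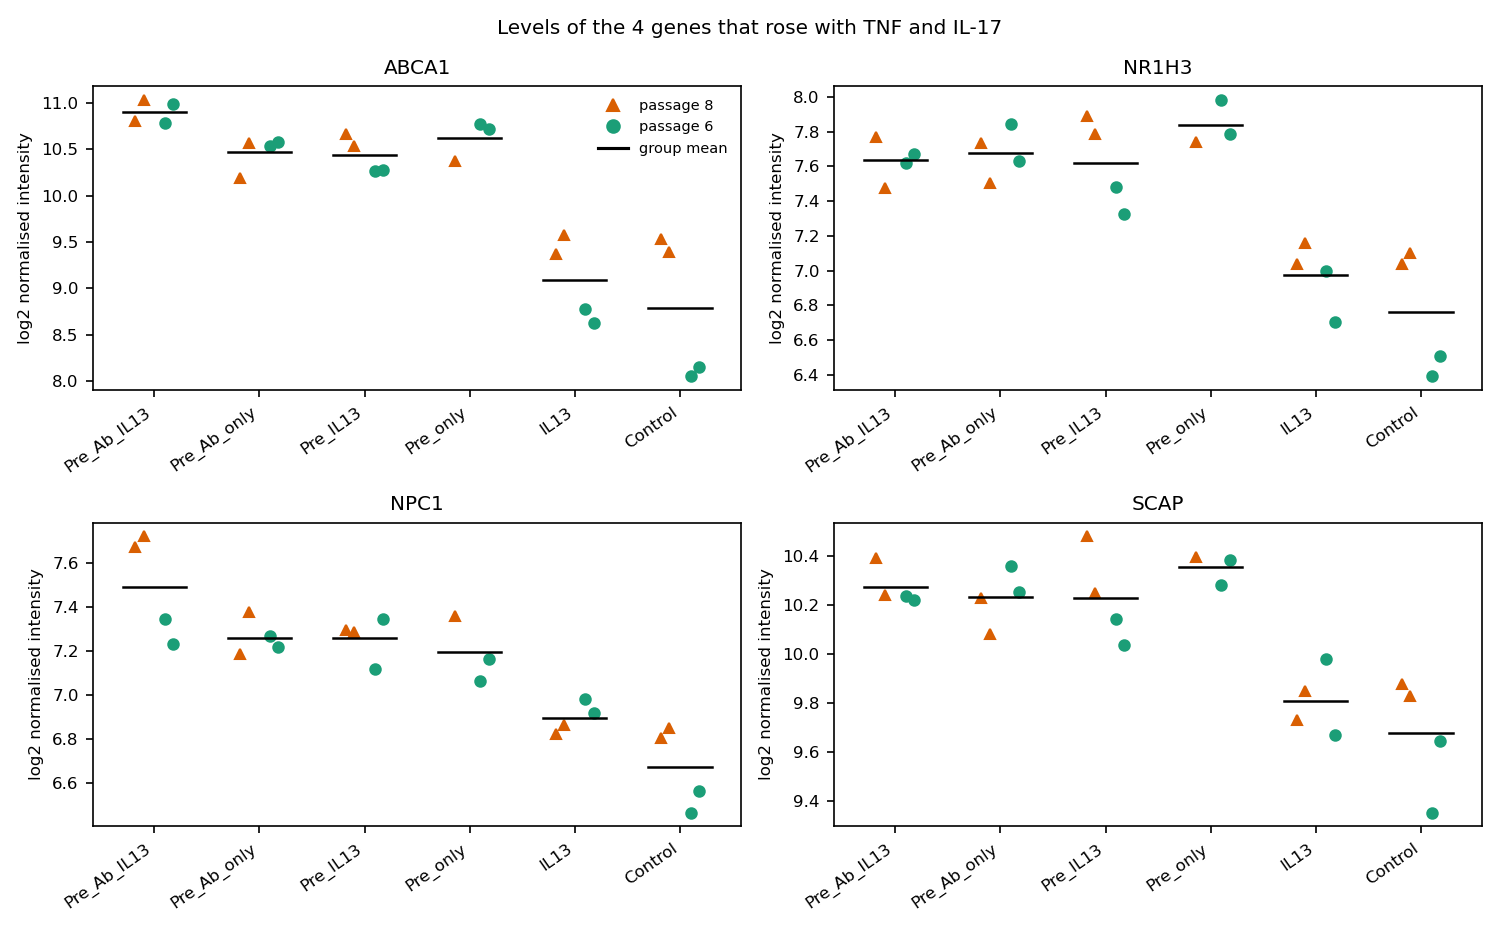
Levels of ABCA1, NR1H3, NPC1 and SCAP in log2 normalised intensity on each array of the 6 groups, with triangles for passage 8, circles for passage 6 and a line at each group mean. For ABCA1 the Control circles (8.06 and 8.16) lie below the Control triangles (9.54 and 9.40), and all 15 arrays with TNF and IL-17 lie higher, from 10.19 to 11.03.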

How the data were processed

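Messenger RNA of CCL-75 fibroblasts was measured on 23 Illumina arrays in 6 groups, from 300 ng of total RNA each. Per the file headers, the deposited table of scanner values gives, for 47323 probes, an intensity and a detection p-value on each array, with bead counts and bead errors in the deposited per-array files, and the submitters' processing notes name GenomeStudio 2011.1. The authors' table of normalised values (31390 probes) is on a log2 scale from 6.35 to 14.2 per its values and was used only as an alternative and, with its annotation, for gene names. The authors' genome build was not given in the sources used here, and promoter coordinates are those of the RefSeq table.

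Intensities were normalised with neqc (limma 3.58.1, R 4.3.3; offset 16). A probe was kept when its detection p was below 0.05 on 3 or more arrays, and a gene was read from its kept probe with the highest mean (12994 genes). A limma fit with group and passage over all 23 arrays (16 residual degrees of freedom, eBayes with intensity trend) gave 11 comparisons, adjusted with Benjamini-Hochberg. The passage difference came from a fit with a mean per group and passage. A gene not detected on any array of a group is set at the lowest detected signal there, and its fold is written as "at least". The number of arrays limits the precision.

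The rule for members uses no measured change, but the members, lists and tests were chosen with earlier results of these data known. All 29 members may be named; values on each array are given for the 12 with the largest called change in Pre_only against Control and for those called with IL-13 or the antibody, and 8 related genes are named by size of change. Experiment letters showed little pairing of the arrays: A minus B correlated above 0.1 in 1 of 15 pairs of groups in passage 6 and 1 of 10 in passage 8. The correlations ran from -0.26 to 0.16 in passage 6 and from -0.22 to 0.34 in passage 8. The highest was that of Pre_Ab_only with Pre_Ab_IL13 in passage 8. Alternatives changed the background correction, scaling, value source, filter, probe choice, passage term, block, arrays, weights and variance model.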

Additional observations from a re-analysis of the deposited data

Results flagged for a closer look

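The passage difference of ABCA1 described above (-1.73 ± 0.21) was picked out because the effect of TNF and IL-17 differed between passages by a test of the difference. In groups of 4 arrays, 145 sets of levels were searched for 1 array far from the other 3, and 10 were found, where chance gives about 1 in 20. Of these, 5 are on IL13 arrays. On IL13 P6-B, IDI1 (6.98, against 7.46 to 7.48), FDPS (7.90, against 8.34 to 8.38) and FASN (11.40, against 11.51 to 11.52) were lower than on the other IL13 arrays. MSMO1 was low on IL13 P6-A (8.50, against 9.39 to 9.51), and CYP51A1 high on IL13 P8-B (7.04, against 6.73 to 6.76). P6-A and P6-B are the arrays with the least even beads, and the part of this in these values was not tested. The others were high values of LSS on Pre_Ab_IL13 P6-A (8.30, against 8.02 to 8.06), SCAP on Pre_Ab_IL13 P8-A (10.39, against 10.22 to 10.24) and DHCR7 on Pre_Ab_only P8-A (7.30, against 7.19 to 7.20), and low values of ABCA1 on Pre_Ab_only P8-A (10.19, against 10.53 to 10.58) and PMVK on Control P8-A (7.71, against 7.89 to 7.90).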

How the results depend on the processing

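With arrays scaled to 1 median, 12 members were called in Pre_IL13 against IL13 (in place of 20), 0 in IL13 against Control (in place of 1), 0 in Pre_Ab_IL13 against Pre_Ab_only (in place of 2) and 0 in Pre_Ab_IL13 against Pre_IL13 (in place of 1), and the change of DHCR7 in Pre_IL13 against IL13 turned to 0.0041. The SCD call in IL13 against Control also went to 0 with no passage term, with A and B averaged, with the compared groups only, in passage 8 only, with array weights, and without both IL13 arrays of passage 6, a setting chosen after seeing the data. In passage 6 only, 1 member was called there, ABCA1 in place of SCD. For Pre_Ab_IL13 against Pre_Ab_only the count was 1 with no passage term, with A and B averaged, in passage 6 only and without an intensity trend (INSIG1 each time), 5 with the compared groups only and 4 with array weights. For Pre_Ab_IL13 against Pre_IL13 it was 0 for the mean over probes, with no passage term and with A and B averaged, and 2 with the compared groups only. In either passage alone it stayed at 1, but with ABCA1 (passage 6) or LSS (passage 8) in place of INSIG1. The first difference of IL-13 responses gave 1 (ABCA1) in passage 6 only, and passage 8 against passage 6 gave 3 with A and B averaged. In Pre_only against Control, median scaling left 13 of 19 calls (PMVK, IDI1, CYP51A1, TM7SF2, SC5D and NPC1 lost), passage 6 only lost PMVK, IDI1, CYP51A1, TM7SF2 and SC5D, passage 8 only lost PMVK, MVD, IDI1, SC5D and NPC2, and the fit with no passage term lost PMVK and IDI1. In Pre_IL13 against IL13, A and B averaged lost SQLE, CYP51A1, EBP, DHCR7 and NPC1, passage 6 only lost these and MSMO1 and SCAP, passage 8 only lost CYP51A1 and EBP, the compared groups only lost SQLE, EBP and DHCR7, no passage term lost EBP and DHCR7, and no detection filter lost EBP. The cause of these moves was not tested.

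Leaving out 1 array gave 17 to 21 members in Pre_only against Control, 17 to 21 in Pre_IL13 against IL13, 0 to 1 in IL13 against Control, 1 to 2 in Pre_Ab_IL13 against Pre_Ab_only, 0 to 1 in Pre_Ab_IL13 against Pre_IL13, 4 to 9 between passages and 1 in each run for the passage difference, and 0 in the other comparisons. With passage and experiment as a replicate block, the counts were 19 in Pre_only against Control and 18 in Pre_IL13 against IL13, where EBP and DHCR7 lost their calls, and no other member changed its call. Over all settings other than leaving out an array, 647 of 735 called changes kept direction and call, 87 kept direction only and 1 reversed. Low signal limits MVK and SREBF2, each detected on 22 arrays, and ABCG1, with a mean level of 5.24 against 5.06 for MVK.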
